A study of Homo sapiens with 12 samples.

Results

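The genes described are the coactivators YAP1 and WWTR1 (TAZ), the TEAD factors TEAD1 and TEAD4 that carry them to DNA, and 6 genes known as their targets or partners: ANKRD1, CTGF (CCN2), CYR61 (CCN1), AMOTL1, AMOTL2 and LATS2. They are 10 of the 23228 genes counted, were chosen by symbol, and all 10 were among the 14571 genes with enough reads to test. The list was chosen with earlier results of these libraries known and has no threshold, so their levels and changes are given as descriptions without p-values. The study sequenced poly(A) RNA of the established human line MDA-MB-468, a basal and triple-negative breast cancer, in 4 groups of 3 libraries named A, B and C. The DMSO group received solvent from day -5. The tazemetostat group received 5 µM of this EZH2 inhibitor from day -5 (EZH2 writes the repressive histone mark of Polycomb). The ipatasertib group received DMSO from day -5 and 5 µM of this inhibitor of the kinase AKT on day 0, and the combination group received both drugs on these schedules. All groups were in medium with 2% serum from day 0, and RNA was collected 24 h later. The cells are 1 line in culture, and the labels do not say whether A, B and C were separate cultures, so standard errors and p-values measure only the spread between these libraries.

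YAP1 and TAZ do not bind DNA themselves. They enter the nucleus and act through TEAD proteins, often at sites next to those of AP-1. The Hippo pathway limits them: the kinases MST1 and MST2, with the scaffold SAV1, activate LATS1 and LATS2, which phosphorylate YAP1 and TAZ so that they stay in the cytoplasm or are degraded. Several targets, among them LATS2 and AMOTL2, encode inhibitors of YAP1, which makes a feedback loop. In epithelial and cancer cells the pathway responds to cell shape, attachment and serum. The activity of YAP1 and TAZ depends on phosphorylation and location, neither of which RNA levels record.

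Libraries held between 12981622 and 28746965 reads in genes, fewest in the combination, where 3 reads correspond to 0.166 to 0.228 CPM. CPM are counts scaled to the library total after TMM scaling, and are thus relative to all RNA. Fewer cells of a kind and less RNA per cell cannot be told apart in bulk RNA. Markers of the line (KRT5, KRT14, KRT17, EGFR, VIM, CDH1 and EPCAM) summed to 3279 to 4786 CPM, and ESR1 with PGR to 1.11 to 2.09 CPM. Single line markers changed with treatment: KRT5 fell by 1.96 and KRT14 by 1.38 on the log2 scale with the combination, EGFR rose by 1.08 with ipatasertib, and VIM rose by 1.55 with tazemetostat. In every group the A library differed more from B and C than these did from each other, with 4.36 to 15.5 against 2.41 to 3.61 as chi-square per degree of freedom of the counts. Reads outside genes took 18.25 to 21% in DMSO libraries, 22.26 to 24.27% in those of ipatasertib, 19.79 to 22.97% in those of tazemetostat and 24.34 to 26.22% in those of the combination. Their part in the results was not tested.

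Promoter windows of 300 bases around the annotated start were taken from RefSeq (GRCh38.p14) for YAP1, WWTR1, ANKRD1, CTGF, AMOTL1, AMOTL2 and LATS2. TEAD1, TEAD4 and CYR61 have no window here. The windows of ANKRD1 (chr10:90921038-90921337, minus strand) and CTGF (chr6:131951323-131951622, minus strand) are shown because these 2 genes had the largest changes of the 10. Capitals mark GGAATG, the TEAD core motif, 5′ to 3′ on the gene's strand.
ANKRD1: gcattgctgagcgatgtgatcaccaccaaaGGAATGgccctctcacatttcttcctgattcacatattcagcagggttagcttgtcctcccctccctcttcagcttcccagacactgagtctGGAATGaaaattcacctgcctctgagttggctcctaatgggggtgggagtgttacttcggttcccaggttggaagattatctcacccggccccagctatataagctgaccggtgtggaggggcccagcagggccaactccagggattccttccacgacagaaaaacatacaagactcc
CTGF: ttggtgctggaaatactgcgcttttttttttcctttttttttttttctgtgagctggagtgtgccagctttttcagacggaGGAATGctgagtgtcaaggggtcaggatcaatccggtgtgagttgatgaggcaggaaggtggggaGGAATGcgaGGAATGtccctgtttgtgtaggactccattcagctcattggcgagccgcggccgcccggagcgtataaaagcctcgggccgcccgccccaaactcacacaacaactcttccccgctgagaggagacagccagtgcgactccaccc
GGAATG, searched on both strands, begins at -220 and -128 from the start of ANKRD1 and at -169, -104 and -95 from that of CTGF. One or more copies lay in 14% of 35116 windows of this length, and 2 or more in 1.37%. The AP-1 motif TGANTCA, also searched on both strands, lies in 7.71% of windows and in 1 of these 7 genes, ANKRD1, at -195, between its TEAD motifs. A single GGAATG lies at -162 in YAP1 (chr11:102110197-102110496, plus strand), at 10 bases after the start in LATS2 (chr13:21061537-21061836, minus strand) and on the opposite strand at -69 of 1 of 2 starts of AMOTL2 (chr3:134374398-134374697, minus strand). Among the pathway genes described further on, GGAATG lies in 5 of 12 other targets with a window, 4 of 18 upstream regulators and 1 of 6 TEAD partners. A gene counts if any of its windows holds the motif, while 14% and 7.71% are shares of windows. The counts of genes are therefore not on the same footing as these shares. The 2 windows of WWTR1, the window of AMOTL1 and the other start of AMOTL2 hold neither motif. A match is a description of these letters and not a record of binding.

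**Figure D1:**
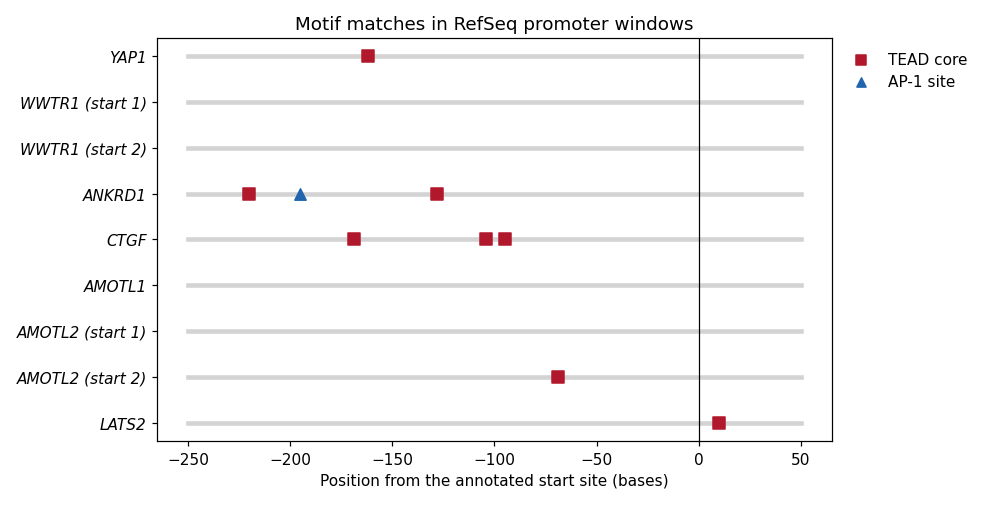
Positions of the TEAD core (squares) and AP-1 motif (triangles) in RefSeq promoter windows, in bases from the annotated start site on the gene's strand, 1 row per start. CTGF holds 3 TEAD motifs within 250 bases of its start and ANKRD1 holds 2 with the AP-1 motif between them.

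YAP1 encodes the main coactivator of the pathway. Its level in libraries A, B and C was 247, 234 and 248 CPM with DMSO and 301, 271 and 258 CPM with ipatasertib. It was 253, 245 and 260 CPM with tazemetostat and 327, 329 and 303 CPM with the combination. Every ipatasertib library lay above every DMSO library, and every combination library above all 9 others, while tazemetostat overlapped DMSO. The log2 fold changes against DMSO were 0.19 ± 0.066 (SE) for ipatasertib, 0.06 ± 0.067 for tazemetostat and 0.40 ± 0.067 for the combination, the last a 1.31-fold difference. The ipatasertib value was the smallest of the 10 genes in size and ranged from 0.10 to 0.23 over the other settings.

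WWTR1 encodes TAZ, the paralog of YAP1, and had another order. It stood at 203, 182 and 190 CPM with DMSO and at 243, 228 and 219 CPM with ipatasertib. With tazemetostat it stood at 148, 124 and 139 CPM, and with the combination at 151, 161 and 172 CPM. The 4 groups did not overlap, with ipatasertib highest and tazemetostat lowest. WWTR1 was 1.20-fold higher with ipatasertib than with DMSO (log2 0.26 ± 0.073) and 1.40-fold lower with tazemetostat (log2 -0.49 ± 0.074). In the combination it remained below DMSO (log2 -0.25 ± 0.074), so that the 2 coactivators differed from DMSO in opposite directions there.

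TEAD1 and TEAD4 encode DNA-binding partners of YAP1 and TAZ. TEAD1 stood at 78.5, 71.1 and 78.9 CPM with DMSO, 104, 92.3 and 89.9 CPM with ipatasertib, 82.1, 88.7 and 83.8 CPM with tazemetostat and 112, 111 and 118 CPM with the combination. TEAD4 stood at 36.1, 35.6 and 32.1 CPM with DMSO, 30.8, 28.1 and 30.6 CPM with ipatasertib, 24.6, 28.9 and 25.7 CPM with tazemetostat and 23.9, 16.2 and 18.7 CPM with the combination. The paralogs stood at opposite ends: the combination was the highest group for TEAD1 and the lowest for TEAD4, in both cases without overlap with any other group. Log2 fold changes of TEAD1 against DMSO were 0.32 ± 0.071 for ipatasertib, 0.16 ± 0.071 for tazemetostat and 0.57 ± 0.071 for the combination. Those of TEAD4 were -0.21 ± 0.101, -0.39 ± 0.102 and -0.81 ± 0.108. Per kilobase of exon, the DMSO level of TEAD4 was 19.2 ± 1.21 CPM per kb and that of TEAD1 8.22 ± 0.477 (SD, n = 3). This order comes from the lengths used, 1805 bases for TEAD4 and 9270 for TEAD1. In CPM the DMSO means were 34.6 for TEAD4 and 76.2 for TEAD1. The lengths join all exons of coding transcripts in GENCODE 29, and which transcripts the cells made was not tested. In the combination TEAD4 stood at 10.9 ± 2.20 CPM per kb.

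ANKRD1 encodes a nuclear ankyrin repeat protein and is a widely used readout of YAP-TEAD activity. It was low with DMSO, at 5.78, 6.13 and 4.63 CPM, and somewhat higher with tazemetostat, at 8.18, 8.55 and 8.77 CPM. With ipatasertib it stood at 35.5, 37.7 and 35.2 CPM, and with the combination at 105, 113 and 99.0 CPM. No groups overlapped. Against DMSO the level was 6.57-fold higher with ipatasertib (log2 2.71 ± 0.097), 1.55-fold higher with tazemetostat (log2 0.63 ± 0.110) and 19.2-fold higher with the combination (log2 4.26 ± 0.097). It was the largest change of the 10 genes with ipatasertib and with the combination. Added to ipatasertib, tazemetostat went with a 2.93-fold higher level (log2 1.55 ± 0.080), against 1.55-fold when added to DMSO.

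CTGF and CYR61 encode secreted matricellular proteins of the same family and are further standard readouts. CTGF stood at 23.8, 23.5 and 23.7 CPM with DMSO, 95.4, 99.0 and 94.7 CPM with ipatasertib, 27.8, 25.96 and 23.9 CPM with tazemetostat and 123, 139 and 135 CPM with the combination. CTGF was 4.07-fold higher with ipatasertib than with DMSO (log2 2.03 ± 0.074) and 5.58-fold higher with the combination (log2 2.48 ± 0.075), while tazemetostat differed by log2 0.13 ± 0.077. CYR61 differed less from DMSO: its levels were 101, 107 and 109 CPM with DMSO, 137, 146 and 147 CPM with ipatasertib, 98.4, 88.0 and 93.8 CPM with tazemetostat and 166, 158 and 148 CPM with the combination. Its log2 fold changes against DMSO were 0.44 ± 0.067 for ipatasertib, -0.18 ± 0.067 for tazemetostat and 0.58 ± 0.067 for both drugs. For both genes the combination lay above ipatasertib in every library, by log2 0.46 ± 0.069 for CTGF and 0.14 ± 0.067 for CYR61. The groups did not overlap for either gene.

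**Figure D2:**
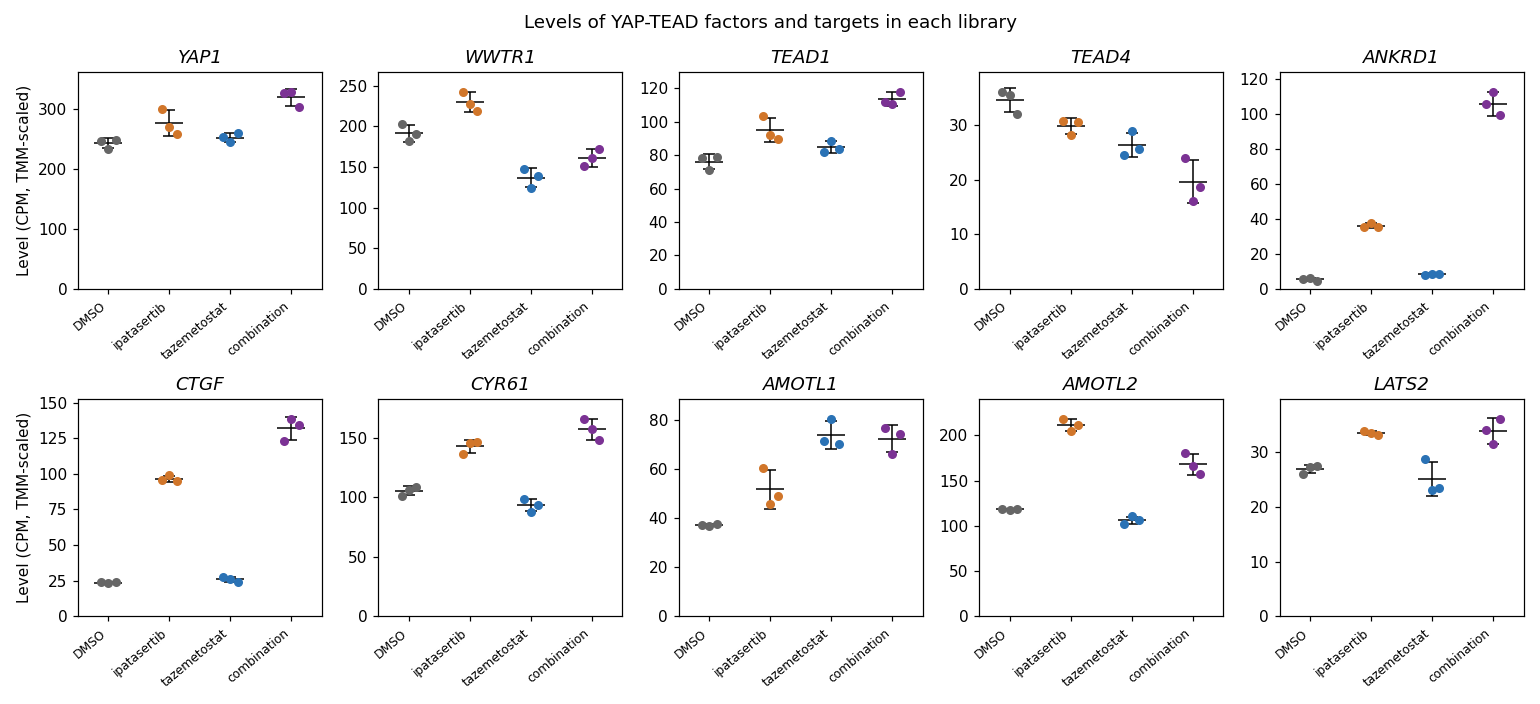
Level of each gene in CPM (vertical axes from 0) in the 3 libraries of each group, as points in the order A, B, C, with the group mean and SD as bars. ANKRD1 and CTGF stand far above DMSO with ipatasertib and the combination, WWTR1 is lowest with tazemetostat, TEAD4 is lowest with the combination and AMOTL1 is high in both groups that received tazemetostat.

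AMOTL1, AMOTL2 and LATS2 encode inhibitors of YAP1: the angiomotin-like proteins hold it at junctions and in the cytoplasm, and LATS2 phosphorylates it. AMOTL1 stood at 37.1, 36.8 and 37.6 CPM with DMSO, 60.6, 45.5 and 49.0 CPM with ipatasertib, 71.2, 80.4 and 70.0 CPM with tazemetostat and 76.5, 66.0 and 74.1 CPM with the combination. AMOTL1 was the only one of the 10 genes whose highest mean was in the tazemetostat group (log2 0.99 ± 0.091 against DMSO, 1.99-fold), and the combination overlapped it. With ipatasertib its log2 fold change was 0.48 ± 0.092, and library A was the highest of the 3.

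AMOTL2 was highest with ipatasertib alone. Its levels were 118, 118 and 119 CPM with DMSO, 218, 205 and 211 CPM with ipatasertib, 102, 110 and 106 CPM with tazemetostat and 180, 166 and 158 CPM with the combination, without overlap between groups. The log2 fold changes against DMSO were 0.84 ± 0.064, -0.15 ± 0.065 and 0.51 ± 0.065 in that order. LATS2 stood at 26.04, 27.3 and 27.6 CPM with DMSO and 33.9, 33.6 and 33.2 CPM with ipatasertib. It stood at 28.7, 23.2 and 23.5 CPM with tazemetostat and 34.1, 31.5 and 36.2 CPM with the combination. Both groups with ipatasertib lay above both groups without it, by log2 0.32 ± 0.084 and 0.33 ± 0.087 against DMSO, and the tazemetostat libraries overlapped DMSO.

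**Figure D3:**
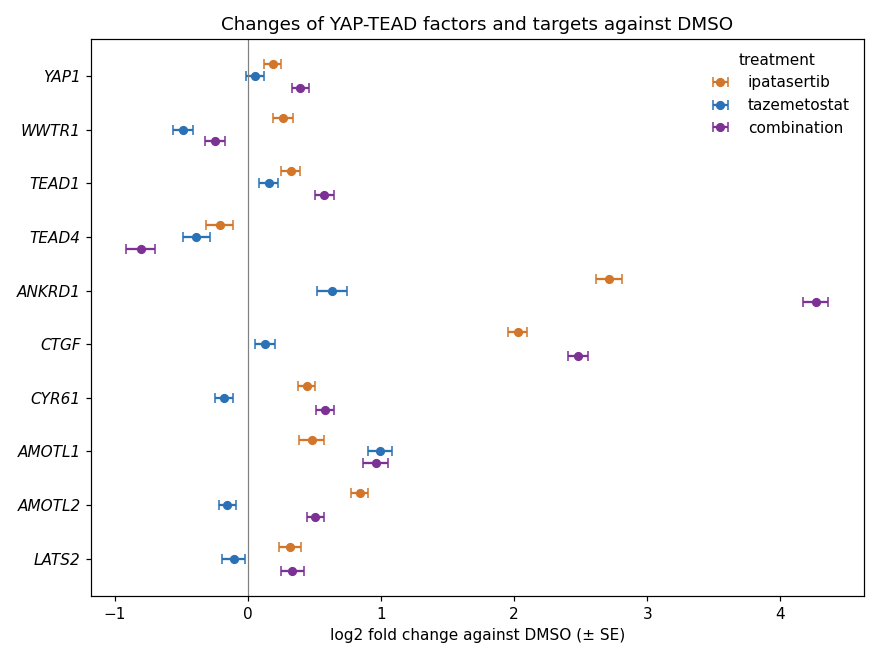
Log2 fold changes against DMSO with SE, from the fit over all 12 libraries, for ipatasertib, tazemetostat and the combination. ANKRD1 (2.71 and 4.26) and CTGF (2.03 and 2.48) stand out with ipatasertib and the combination, and WWTR1 (-0.49) and AMOTL1 (0.99) each have their largest difference from DMSO with tazemetostat alone.

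Counted by edgeR's quasi-likelihood test at an adjusted p under 0.05 over all genes, ipatasertib put 9 of the 10 above DMSO and 0 below. At an unadjusted p under 0.05 these were 9 and 1, and with DESeq2 9 and 0. By edgeR at the adjusted threshold, 24% of all tested genes were called higher and 23.1% lower. Shares at an unadjusted p or with DESeq2 are not given. The call for YAP1 was lost without DMSO B, DMSO C, ipatasertib A or ipatasertib B, with log2 values of 0.10 to 0.23 over all settings. Tazemetostat put 2 above (ANKRD1 and AMOTL1) and 3 below (WWTR1, TEAD4 and CYR61), against 25.9% and 21.3% of all genes. With DESeq2 these counts were 2 and 4, and with plain library totals, which raised TEAD1 (0.23) and CTGF (0.20) past the threshold and dropped CYR61 (-0.11), they were 4 and 2. CYR61 also lost its call with a stricter filter (-0.16), with the replicate block (-0.18), and without DMSO B, DMSO C or tazemetostat B. The combination put 8 above and 2 below, WWTR1 and TEAD4, against 34.4% and 30%. Since the 10 were chosen from these results, nothing is read from their counts against the background, here or in the comparisons further on. Their median log2 fold changes were 0.38, -0.03 and 0.54, beside 0.00, 0.01 and 0.03 over all tested genes. Without the A library of every group the counts were 9 and 1, 3 and 4, and 8 and 2, above and below.

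The other genes of the pathway were taken from lists of general knowledge, drawn up with earlier results of these libraries known. The first holds 22 kinases and regulators upstream of YAP1, all tested. Ipatasertib raised 7 and lowered 1 of them, beside 24% and 23.1% of all genes. SAV1, the scaffold of the MST kinases, rose from 91.6, 88.6 and 82.7 CPM with DMSO to 184, 203 and 183 CPM, a log2 change of 1.12 ± 0.087 (edgeR, adjusted p = 1.15e-09). LATS1, the paralog of LATS2, rose by 0.64 ± 0.109, WTIP, a LIM protein that inhibits LATS kinases, by 0.55 ± 0.125 and WWC3, a KIBRA family member, by 0.42 ± 0.072. AMOT, the angiomotin itself, fell by 0.21 on the log2 scale with ipatasertib (edgeR, adjusted p = 0.0137). This call was lost with plain library totals (-0.17) and without ipatasertib B (-0.18). Kinases of MST type did not pass the test in any comparison with DMSO. For ipatasertib, tazemetostat and the combination, STK4 stood at log2 0.10 ± 0.068, -0.05 ± 0.068 and 0.16 ± 0.069. STK3 stood at -0.06 ± 0.091, -0.21 ± 0.091 and 0.01 ± 0.093 in the same order. In the combination against tazemetostat STK4 was higher by 0.21 ± 0.069 (edgeR, adjusted p = 0.0181).

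With tazemetostat 7 of the 22 rose and 2 fell, beside 25.9% and 21.3% of all genes. WWC2, another KIBRA family member, stood at 0.25, 0.45 and 0.19 CPM with DMSO and at 27.7, 25.7 and 24.0 CPM with tazemetostat. Its log2 change was 6.47 ± 0.189 (edgeR, adjusted p = 5.29e-17), from 5 to 10 reads in each DMSO library, and with ipatasertib alone it differed by -0.44 ± 0.492. MAP4K4, a kinase that can activate LATS, rose by 0.72 ± 0.059 and LATS1 by 0.41 ± 0.110. AMOT rose by 0.22 ± 0.067, a call lost without DMSO C, tazemetostat B or tazemetostat C (0.19, 0.17 and 0.20). WWC3 rose by 0.20 ± 0.072, a call lost with no filter (0.18) and with the replicate block (0.20). It was also lost without any 1 of 6 libraries: DMSO A or B, ipatasertib B or C, tazemetostat B or C (0.15 to 0.19). SAV1 fell by 0.49 and TAOK3, a kinase upstream of the MST kinases, by 0.60 on the log2 scale. FAT4, a protocadherin upstream of the pathway, had 1, 2 and 1 reads with DMSO and 24, 22 and 29 with tazemetostat. In the combination 10 rose and 3 fell, beside 34.4% and 30% of all genes, with SAV1 again above DMSO (0.99 ± 0.087), WWC2 at 28.6, 31.6 and 33.4 CPM, and TAOK2 (-0.42 ± 0.108), TAOK3 (-0.33 ± 0.079) and AMOT (-0.23 ± 0.068) lower. The medians of the 22 log2 changes against DMSO were 0.01 for ipatasertib, 0.12 for tazemetostat and 0.20 for the combination, beside 0.00, 0.01 and 0.03 over all genes.

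The second list holds the other TEAD factors and the VGLL cofactors, which compete with YAP1 for TEAD binding; 5 of 6 were tested, and VGLL2 had 6 reads in all. TEAD2 stood at 83.9, 90.7 and 91.6 CPM with DMSO and at 62.2, 62.9 and 70.5 CPM with ipatasertib, a log2 change of -0.44 ± 0.079 (edgeR, adjusted p = 8.77e-05). With the combination TEAD2 fell by 0.59 on the log2 scale, and with tazemetostat it differed by 0.08. TEAD3 passed in no comparison with DMSO (-0.03, 0.06 and -0.09). VGLL1 fell by 0.40 with tazemetostat and 0.53 with the combination. It fell by 0.19 with ipatasertib. That call was lost with plain library totals (-0.15), with libraries paired by letter, and without DMSO B (-0.16), DMSO C (-0.19) or ipatasertib A (-0.14). VGLL4, a repressor of TEAD, rose by 0.54 ± 0.119 with ipatasertib, 0.63 ± 0.122 with the combination and 0.41 ± 0.119 with tazemetostat. The tazemetostat call for VGLL4 was lost without tazemetostat B (0.26). VGLL3 stood at 0.24 ± 0.135 CPM with DMSO and rose to 2.18 ± 0.814 CPM with tazemetostat (SD, n = 3).

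Levels per kilobase of exon put the TEAD genes in the order TEAD2 (33.0 ± 1.56 CPM per kb), TEAD3 (28.5 ± 0.995), TEAD4 (19.2 ± 1.21) and TEAD1 (8.22 ± 0.477) with DMSO (SD, n = 3). Orders between genes hold only for the exon lengths used, as the annotation behind the counts is not known. The place of TEAD1 below TEAD4 is reversed in CPM. In the combination TEAD3 had 26.7 ± 2.93 and TEAD2 21.95 ± 2.48 CPM per kb, and TEAD3 was higher in every library. YAP1 had 43.2 ± 1.43 and WWTR1 35.7 ± 1.91 CPM per kb with DMSO, and 56.8 ± 2.55 and 30.1 ± 2.02 with the combination. AMOTL2 with 24.7 ± 0.123 was well above AMOTL1 with 4.13 ± 0.045, and LATS2 with 4.89 ± 0.148 above LATS1 with 1.62 ± 0.157 CPM per kb.

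The third list holds 17 further genes of a published YAP-TAZ target signature, all tested. Ipatasertib raised 13 and lowered 1, beside 24% and 23.1% of all genes, with a median log2 change of 0.56 against 0.00. NT5E, the ectonucleotidase CD73, stood at 17.1, 17.6 and 18.04 CPM with DMSO, at 92.2, 84.2 and 76.8 CPM with ipatasertib, at 34.4, 29.02 and 28.6 CPM with tazemetostat and at 188, 201 and 206 CPM with the combination. Its log2 changes against DMSO were 2.26 ± 0.086, 0.80 ± 0.088 and 3.496 ± 0.088 (edgeR, adjusted p from 1.28e-18 to 1.63e-07), with the same order of groups as ANKRD1. AXL, a receptor tyrosine kinase, had the same order at a low level, with means of 0.53, 2.33, 1.16 and 5.08 CPM for DMSO, ipatasertib, tazemetostat and the combination.

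CRIM1, a membrane protein that binds BMPs, rose by 1.30 ± 0.076 with ipatasertib and 1.49 ± 0.076 with the combination and differed by 0.00 with tazemetostat. MYOF, a membrane repair protein, rose by 1.09 ± 0.081, and PTPN14, a phosphatase that binds YAP1, by 0.98 ± 0.069 with ipatasertib. FJX1 rose by 0.20 ± 0.071 with ipatasertib. This call was lost with no filter (0.19) and without DMSO A, DMSO C, ipatasertib B or ipatasertib C (0.16 to 0.19). GADD45A, a growth arrest gene, was the 1 that fell, from 34.8, 34.9 and 35.3 CPM with DMSO to 19.5, 22.04 and 20.4 CPM (log2 -0.77 ± 0.077; edgeR, adjusted p = 5.26e-08).

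Tazemetostat raised 5 of these 17 and lowered 3, beside 25.9% and 21.3% of all genes, with a median of 0.09. Without A libraries the counts were 8 and 4, with no share of all genes given for that setting. Calls over all genes reached 8138 in the other settings, against 6874. The 5 raised were NT5E, AXL (1.20 ± 0.324), FOXF2, a forkhead factor (0.78 ± 0.166), CCDC80, a matrix protein (0.59 ± 0.096), and PTPN14 (0.22 ± 0.069). The PTPN14 call was lost without DMSO A, tazemetostat B or tazemetostat C (0.19 each). F3, the tissue factor, fell by 0.65, the growth factor gene TGFB2 by 0.44 and FJX1 by 0.38 on the log2 scale. The combination raised 13 and lowered 3 (FJX1, GADD45A and F3), beside 34.4% and 30% of all genes, with a median of 0.59; F3 lost its call without combination A (-0.20). IGFBP3, which binds insulin-like growth factors, rose by 0.25 ± 0.065 with ipatasertib and 0.30 ± 0.065 with the combination. Markers of other cell types moved as well: the fibroblast list (6 genes, 2 tested) summed to 9.72 to 11.7, 5.23 to 5.53, 15.7 to 19.3 and 9.48 to 11.4 CPM (DMSO, ipatasertib, tazemetostat, combination), and COL1A2, DCN and LUM were at 0 with DMSO. Of its 2 tested genes, 1 fell with ipatasertib, 2 rose with tazemetostat, and 1 rose and 1 fell with the combination. The endothelial list (5 genes, 3 tested) summed to 20.5 to 20.9, 30.1 to 31.5, 13.2 to 16.2 and 21.99 to 23.97 CPM in the same order; 2 rose with ipatasertib, 2 rose and 1 fell with tazemetostat, 1 rose with the combination, and TEK was at 0 with tazemetostat. The leukocyte list (5 genes) summed to 77.2 to 82.9, 75.1 to 96.8, 53.0 to 60.9 and 58.5 to 68.2 CPM in the same order. With DMSO most of each sum was 1 gene: COL1A1 (mean 10.7 CPM), KDR (19.9) and CD14 (79.2). Of the leukocyte markers 2 were tested: CD14 fell by 0.46 with tazemetostat and 0.35 with the combination on the log2 scale, and PTPRC, called higher in the combination, had 3, 0 and 1 reads with DMSO and 9, 8 and 10 with the combination. Their part in the changes was not tested.

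**Figure D4:**
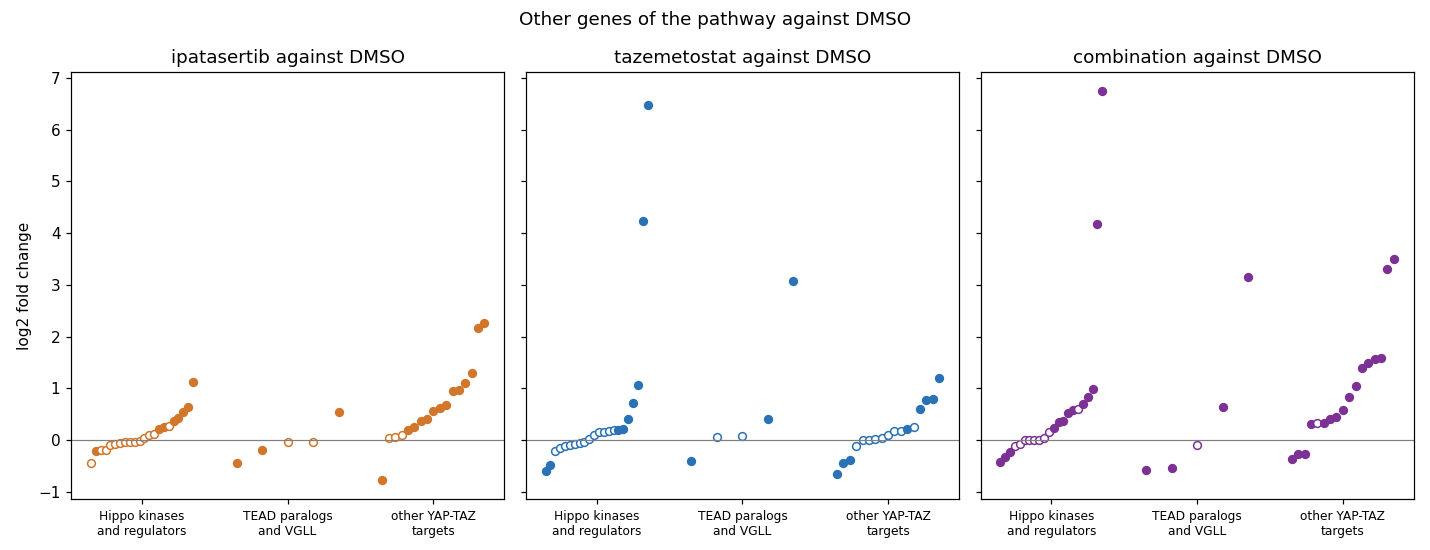
Log2 fold change against DMSO of the tested genes of the 3 pathway lists, 1 panel per treatment, with genes ordered by size within a list. Filled points passed edgeR's test at an adjusted p under 0.05 and open points did not. Of 17 targets, 13 rose with ipatasertib, beside 24% of all genes, and 5 with tazemetostat, beside 25.9%. The point at 6.47 is WWC2.

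The combination was next set against each drug alone; these comparisons share libraries with those above. Against ipatasertib, 5 of the 10 genes were called higher (YAP1, TEAD1, ANKRD1, CTGF and AMOTL1) and 3 lower (WWTR1, TEAD4 and AMOTL2), beside 24.2% and 20.7% of all genes. YAP1 (0.21 ± 0.067) lost this call without ipatasertib B, ipatasertib C or combination B, and TEAD1 (0.25 ± 0.071) without ipatasertib C, with ranges of 0.15 to 0.26 and 0.20 to 0.33. WWTR1 differed by -0.51 ± 0.074, TEAD4 by -0.59 ± 0.110 and AMOTL2 by -0.33 ± 0.065. CYR61 (0.14 ± 0.067) and LATS2 (0.02 ± 0.086) were not called.

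Against tazemetostat, 8 were called higher and 1 lower, beside 23.2% and 23.1% of all genes. ANKRD1 was 12.4-fold higher (log2 3.63 ± 0.092) and CTGF 5.11-fold higher (log2 2.35 ± 0.075). TEAD4 was the 1 lower (-0.42 ± 0.110), and AMOTL1 differed by -0.03 ± 0.090. WWTR1 (0.24 ± 0.075) lost its call without tazemetostat B or combination C (range 0.16 to 0.34). The target list had 7 genes higher and 5 lower against ipatasertib, with FOXF2 (1.46 ± 0.165) and NT5E (1.23 ± 0.078) the largest rises. It had 14 higher and 1 lower against tazemetostat, beside the shares of all genes given for these comparisons.

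The interaction asks whether the effect of one drug differed with the other present, as the combination's departure from the sum of both single effects on the log2 scale. ANKRD1 had the largest interaction of the 10 genes, 0.92 ± 0.136, a level 1.89-fold above that sum. CTGF (0.33 ± 0.103) and CYR61 (0.31 ± 0.095) were also called above it and AMOTL1 (-0.51 ± 0.129) below, beside 5.96% and 6.01% of all genes. AMOTL1 was higher by 0.48 with ipatasertib in the absence of tazemetostat and differed by -0.03 in its presence. As the 10 were chosen with these results known, nothing is read from these calls. The other settings reuse the same libraries and show only how a call depends on the processing or on single libraries. For ANKRD1 the call held in 19 of 19 other settings, within 0.84 and 1.03. It held for CTGF in 7 of 19 (0.28 to 0.42), for CYR61 in 10 of 19 (0.26 to 0.37) and for AMOTL1 in 17 of 19 (-0.59 to -0.38). CTGF kept its call only without ipatasertib B, tazemetostat A or combination A among libraries left out in turn. CYR61 lost it without DMSO B or C, ipatasertib A or C, tazemetostat B or C, or combination B, and AMOTL1 without tazemetostat B or combination B (both -0.44). YAP1 (0.16 ± 0.094), TEAD1 (0.10 ± 0.10) and WWTR1 (-0.02 ± 0.104) were not called, which does not show that the drugs act independently on them.

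**Figure D5:**
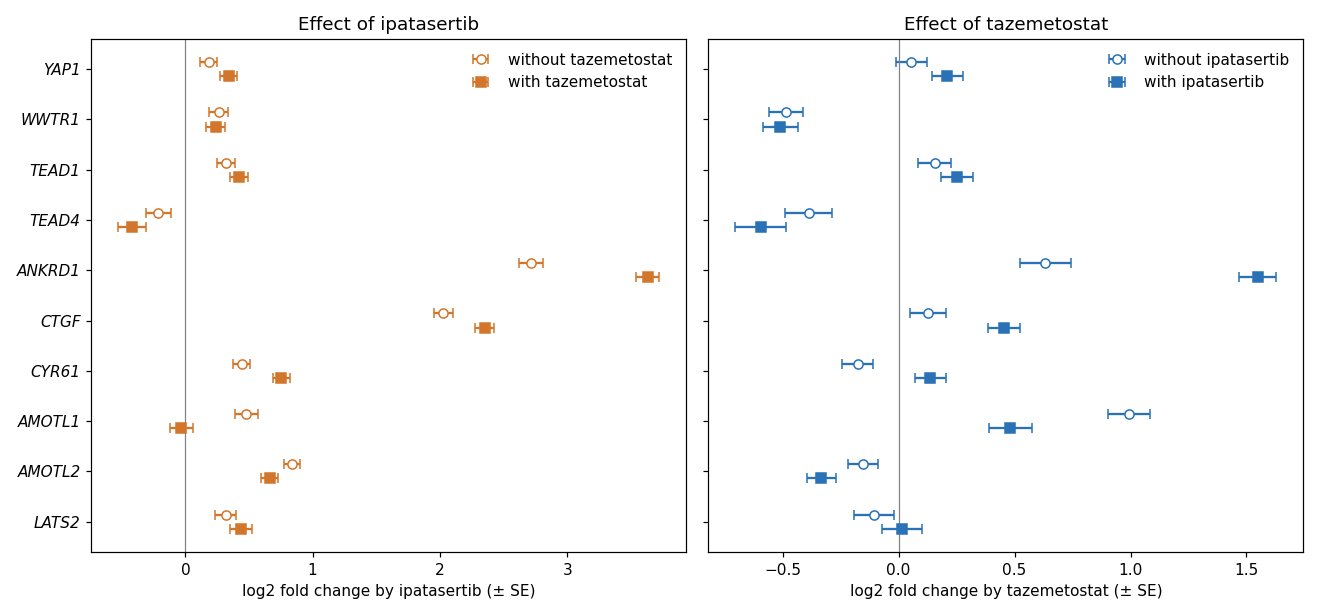
Log2 fold change with SE by ipatasertib without and with tazemetostat (left) and by tazemetostat without and with ipatasertib (right) for the 10 genes. The marks of ANKRD1 lie apart in both panels (2.71 and 3.63, then 0.63 and 1.55), those of AMOTL1 lie apart in the other direction, and those of WWTR1 nearly coincide.

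By edgeR at an adjusted p under 0.05, 5.96% of all tested genes had an interaction above the sum and 6.01% below. No share of all genes is given at an unadjusted p or with DESeq2. The list counts at those settings are therefore not set against these shares. Of the 22 upstream regulators, 2 had an interaction above the sum and 0 below by edgeR, with 6 and 4 at an unadjusted p under 0.05 and 3 and 1 with DESeq2. These were JUB (AJUBA), a LIM protein that inhibits LATS (0.37 ± 0.110), and TAOK3 (0.37 ± 0.112). Of the 17 targets, TGFB2 (0.49 ± 0.101), GADD45A (0.47 ± 0.109) and NT5E (0.43 ± 0.118) were above and 0 below. These counts were 6 and 1 at an unadjusted p under 0.05 and 4 and 1 with DESeq2. With DESeq2, F3 (0.35) was called above and MYOF (-0.34) below. MYOF was also called below with library totals (-0.40), with no filter (-0.35) and without A libraries (-0.32), among other settings. Of the 5 TEAD partners 0 were called in either direction, also at an unadjusted p under 0.05 and with DESeq2. Without combination A 2 were below the sum, and 3 without A libraries. Calls over all genes rose as well in these settings, from 1744 to 3231 and to 5452. JUB lost its call with plain library totals (0.32) and without DMSO A or C, ipatasertib B or C, or tazemetostat C (0.35 to 0.39). NT5E lost its call without DMSO B or C, ipatasertib C, tazemetostat B or C, or combination B (0.37 to 0.44). TAOK3 lost it without DMSO B or C, ipatasertib A or C, tazemetostat B or C, or combination B or C (0.31 to 0.38). With the replicate block neither JUB nor TAOK3 was called. TGFB2 and GADD45A kept theirs in all settings run. GADD45A fell with ipatasertib alone by 0.77, and in the combination it stood at 28.1, 28.7 and 30.4 CPM, between ipatasertib and DMSO.

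Across the 12 libraries, which share the 4 treatments, the log2 levels of ANKRD1 and CTGF had a Pearson correlation of 0.975, and those of CTGF and CYR61 of 0.952. The lowest of the 45 pairs was TEAD1 with TEAD4, at -0.759, and YAP1 with WWTR1 had 0.025. Among 11415 genes of at least 5 CPM in the highest group, the profiles most like ANKRD1 were those of SPRY1 (0.9965), an inhibitor of receptor tyrosine kinase signalling with 25.3 ± 0.221 CPM with DMSO, 47.4 ± 0.921 with ipatasertib and 67.9 ± 1.08 with the combination (SD, n = 3), TFPI2 (0.9946) and ARID5B (0.9941). For CTGF they were CSNK2A2 (0.9972), TNFSF10 (0.9970) and PSG9 (0.9958), and for CYR61 they were the ERK phosphatase gene DUSP6 (0.9867), INHBB (0.9839) and CMTM7 (0.9808). TFPI2 stood at 4.73, 28.03, 6.09 and 68.2 CPM and TNFSF10, which encodes TRAIL, at 86.2, 277, 103 and 360 CPM (means for DMSO, ipatasertib, tazemetostat and the combination). These correlations follow differences between 4 groups and say nothing of shared control.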

How the data were processed

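RNA of 12 MDA-MB-468 libraries was measured, 3 in each of 4 groups. For each library the authors deposited raw counts by gene symbol. The build hg19 and the tools STAR, SAMtools, HTSeq and DESeq2 are listed per the submitters' processing notes, without versions. Neither annotation nor strand setting is given in the sources used here, and reads of overlapping or antisense genes could not be told apart. The closing lines of each table that count reads outside genes did not enter library totals. The authors' normalized table was not used. One marker gene is not reported here.

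Counts were fitted in R 4.3.3 with edgeR 4.0.16 (filterByExpr with minimum count 10, TMM factors, robust glmQLFit over all 12 libraries with 8 residual degrees of freedom, glmQLFTest) and adjusted by Benjamini-Hochberg over 14571 genes at 0.05 for 6 comparisons. The members and lists were chosen with earlier results of these data known. Named pathway genes were, per list, comparison and direction, up to 4 called genes of the largest change with at least 5 CPM in the highest group; part of these are printed. FAT4, VGLL2, VGLL3, STK3, STK4, TEAD3, IGFBP3, the markers of cell types and other genes outside that rule were named after their values were seen. JUB is the older symbol of AJUBA. Exon lengths for values per kb are from GENCODE 29 (GRCh38), and promoter windows from RefSeq (GRCh38.p14).

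Same-letter libraries of ipatasertib and DMSO deviated together, with correlations of 0.419, 0.134 and 0.106, all above the bound of 0.1, and only the A pair matched its own letter best; no other comparison met the bound in every pair. Each result was recomputed with DESeq2 1.42.0, with RLE factors or plain library totals, without a filter or with at least 50 counts in 3 libraries, with the compared groups alone, with the replicate block, without A libraries, and without each library in turn. Across the 12 libraries 3 reads correspond to 0.106 to 0.228 CPM.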

Additional observations from a re-analysis of the deposited data

Results flagged for a closer look

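The interaction term of edgeR's fit passed an adjusted p under 0.05 for 9 of the genes described. These were 4 of the 10 genes and 5 of the 44 tested genes of the pathway lists. Nothing is read from the calls of the 10. On the log2 scale the interaction was 0.92 for ANKRD1, 0.33 for CTGF, 0.31 for CYR61 and -0.51 for AMOTL1. Among the other genes of the pathway it was 0.49 for TGFB2, 0.47 for GADD45A, 0.43 for NT5E, 0.37 for JUB and 0.37 for TAOK3. Of all tested genes, 5.96% were called above the sum of both single effects and 6.01% below. The call for CTGF held in 7 of 19 other settings and that for CYR61 in 10 of 19. The replicate block ended the calls for CTGF, CYR61, JUB and TAOK3. All 9 come from lists drawn up with earlier results of these libraries known. The values of the first 4 are descriptions.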

How the results depend on the processing

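The number of interaction calls moved most with the settings. Against 1744 genes, the replicate block gave 1012, leaving out the A library of every group 5452, and leaving out 1 library 674 (without combination B) to 3681 (without tazemetostat A). Of the pathway lists, 5 genes had an interaction, against 9 with DESeq2, 9 with no filter, 3 with the replicate block, 25 without A libraries and 2 to 15 with 1 library left out. The cause was not tested. No value changed direction among called results, and for the other 5 comparisons the counts over all genes and over the 3 pathway lists together stayed within 1.5 times. Single lists moved further: without A libraries, upstream regulators above ipatasertib in the combination went from 4 to 9, and targets above DMSO with tazemetostat from 5 to 8. Calls over all genes in these 2 comparisons reached 8040 and 8138 in the other settings, against 6540 and 6874. The share of all genes called without A libraries is not given, so nothing is read from these list counts. In ipatasertib against DMSO the replicate block called 24 pathway genes against 25. Library totals in place of TMM factors moved the share of calls that were higher from 54.9 to 67.9% with tazemetostat and from 49.8 to 33.6% for the interaction. The replicate block also ended 10 calls among the 10 genes and the pathway genes named by rule. With ipatasertib this was VGLL1 (-0.19), and with tazemetostat CYR61 (-0.18) and WWC3 (0.20). For the combination against tazemetostat they were CRB3 (-0.30), LATS1 (0.29) and WWC2 (0.28). For the interaction they were CTGF (0.33), CYR61 (0.31), JUB (0.37) and TAOK3 (0.37). In the combination against ipatasertib, targets called lower went from 5 to 4 with the block.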
